A study of Drosophila melanogaster with 2 samples.

Results

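Homeobox genes outside the Hox group are described here by the Senseless-2 ChIP-seq peaks at them in Drosophila melanogaster embryos. The set held 53 genes named by their class and known role, all of them protein-coding, of 13968 protein-coding genes in all. A ChIP-seq summit, the single base at which the authors placed the centre of a peak, was given to a gene in either of 2 ways. It could lie in the gene's domain, meaning the gene body with 2 kb upstream, or the nearest annotated transcript start could be one of that gene's. In the authors' conservative peak list, 27 of 2883 summits belonged to the set by these rules, 14 inside a domain and 13 outside one. The 2 samples were biological replicates of the only group, whole embryos of 0 to 24 h from transgenic flies of a strain named sens-2-GFP. All embryos carried an insertion that makes a sens-2-eGFP fusion protein, and chromatin sheared to 200 to 800 bp was precipitated, by the sample descriptions, with an antibody against GFP, while the antibody field of the labels reads sens-2. Neither an untagged strain nor an input library was analysed here, so peaks are compared with the other peaks of the same list and not with a control. In whole embryos, strong binding in few cells and weak binding in many cells cannot be told apart.

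Homeobox genes encode transcription factors with a homeodomain, a helical DNA-binding fold that often reads AT-rich sites. Outside the Hox clusters they include maternal and segmentation regulators of the embryonic axis, the NK, LIM and POU classes that give neurons and muscles their identities, the Pax and sine oculis families of eye development, and the Iroquois genes. Many of them lie in large stretches of non-coding sequence and are controlled by enhancers far from the promoter. Senseless-2 is a zinc-finger protein related to Senseless, which acts with proneural factors in sensory organ precursors.

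The thresholded list of replicate 1 held 1960 peaks on assembled chromosomes and that of replicate 2 held 1636. Read depth is unknown from peak lists. Signal is the authors' own value per peak, on the scale of each list, so replicate signals are given side by side and are not averaged. Intervals below are exact binomial 95% intervals that cover the counting of genes or peaks only.

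Homeobox genes outside the Hox group held a summit in their domain about as often as other genes, although their domains were long. A summit lay in the domain of 10 of 53 genes (18.9%, interval 9.44 to 32), against 17.9% of all protein-coding genes. The 10 genes were otp, Dll, Lim3, bcd, Lim1, cad, ct, Awh, inv and Drgx. The median domain was 14.2 kb in the set and 4.16 kb over all protein-coding genes, and long domains hold more summits. In the longest of 4 equal classes of domain length, 9 of 38 homeobox genes had a summit (23.7%, interval 11.4 to 40.2), against 33.8% of all genes of that class. This class is broad, from 7 to 1968 kb, where the longest domain of the set was 72.4 kb, so lengths are matched only roughly. In the next class 1 of 11 had a summit, bcd, against 17.1% of all genes. None of the 3 genes in the class below it (eve, ftz and zen) and not the single gene in the shortest class (ind) had a summit, where the shares of all genes were 12.8% and 7.9%. The share in the set was thus under that of all genes in each class. The intervals of the longest class and of the next one (0.23 to 41.3) held the share of all genes. Those of the shorter classes, with 3 genes and 1 gene, ran from 0 to 70.8 and from 0 to 97.5. They are too wide to tell the shares apart. At the share of all genes in each class, 15.2 genes of the set would have had a summit, where 10 did. The longest class includes ey, toy, onecut and zfh2 on chromosome 4, where the conservative list had 0 peaks.

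**Figure D1:**
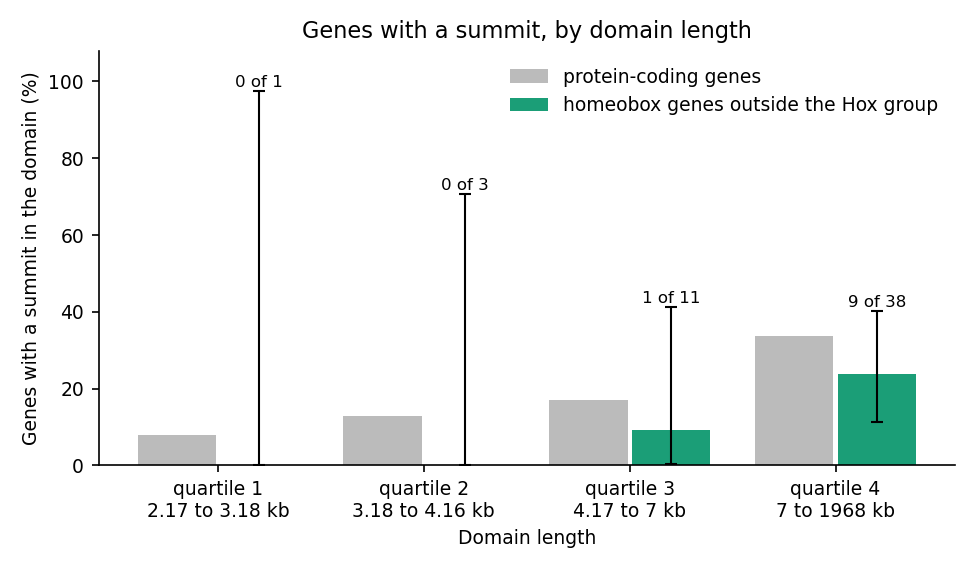
Percent of genes with a summit in the domain, in 4 classes of domain length in kb, for all protein-coding genes (grey) and for the homeobox genes (green, with exact binomial 95% intervals and counts). In the longest class 9 of 38 homeobox genes had a summit (23.7%), against 33.8% of all genes.

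Counting summits outside the domain as well gave a higher share. By domain or nearest start, 17 of 53 genes had a summit (32.1%, interval 19.9 to 46.3), against 19.4% of all protein-coding genes. The 7 genes added were ems, oc, vvl, Dr, eyg, mirr and caup, all through intergenic summits. The sequence nearest to a gene's own starts had a median length of 18.5 kb in the set and 3.72 kb over all protein-coding genes, so these genes also had more sequence in which a summit could fall. Per length, summits of all kinds were sparser in the merged domains of the set (14.8 per Mb) than in those of all protein-coding genes (24.6 per Mb). They were also sparser in the sequence nearest to homeobox starts (18.1 per Mb) than in that nearest to protein-coding starts (22.4 per Mb). Summits away from promoters alone numbered 11 in the merged domains of the set (11.6 per Mb). They were about as dense in the merged domains of all protein-coding genes (12.3 per Mb) and in the whole genome (11.7 per Mb). In the sequence nearest to homeobox starts there were 15.7 such summits per Mb, against 11.8 per Mb for the sequence nearest to protein-coding starts.

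Promoter summits were at Dll, bcd and Drgx. These 3 genes had a summit within 500 bp of an own transcript start, which is 3 of 53 genes (5.66%, interval 1.18 to 15.7). Of all protein-coding genes 10.6% had one, a share inside that interval.

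The 10 segmentation and maternal patterning genes had 4 summits at 3 of them, bcd, cad and inv. Counts of this and the following role groups are by domain or nearest start, by which 19.4% of all protein-coding genes had a summit. The groups hold few genes each, and differences between them were not tested. bcd, which encodes the maternal anterior morphogen Bicoid, had a promoter summit 134 bp upstream of its start on 3R (peak 6759452 to 6759747), with a signal of 104 in the conservative list. Its signal was 56.1 in replicate 1 and 47.4 in replicate 2, and both replicates called it. cad, the posterior determinant caudal, had 2 intronic summits, at 3508 bp (signal 95.2) and 1532 bp (66.7) from its start. The first was called in both replicates, with signals of 46.1 and 46.5, and the second in neither, with 31.0 and 28.3. inv, the paralog and neighbour of engrailed, had 1 intronic summit 24943 bp from its start (2R 11500503 to 11500798, signal 61.3), called in neither replicate. In en itself the strongest ranked peak reached 36.0, and the 14.3 kb between en and inv held 0 summits. The pair-rule genes eve, ftz and prd had 0 summits, with strongest ranked peaks of 24.2, 31.5 and 24.6. The nearest summit lay 14.1 kb from the domain of eve and 43.5 kb from that of ftz. The neighbouring segment polarity genes gsb and gsb-n also had 0 summits, in their domains or in the 9.63 kb between them. zen, 1.65 kb from bcd, had none either, with a strongest ranked peak of 28.7 against 104 at bcd.

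The strongest peak of the set lay in a coding exon. otp, which encodes the paired-type homeodomain protein Orthopedia, had a summit in its last exon, 12969 bp from its nearest own start (2R 20884523 to 20884699), in coding sequence of 9 annotated transcripts. The signal was 351, rank 63 of 2883, with 230 in replicate 1 and 127 in replicate 2. The nearest transcript start, 4685 bp away, belonged to Cib2. Of 2883 summits 30 were classed as coding, a class that leaves out promoter and 5′ UTR summits. Their median signal was 57.8, and the otp peak was the strongest of them. It was also the narrowest of the set, 177 bp wide, where the other 26 peaks had the list's full width, as did 2552 of all 2883. The bases within 50 bp of its summit were 64.4% G and C, against a median of 60.4% over the 30 coding summits and 35.6% over the list.

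Dll, the gene Distal-less needed for limb formation, had the second strongest peak and the strongest at a promoter. The summit lay 95 bp upstream of its start on 2R (24814579 to 24814874), with a signal of 204 and rank 247. The signal was 93.3 in replicate 1 and 103 in replicate 2, and both replicates called it. The other appendage genes al, B-H1, B-H2 and C15 had 0 summits, with strongest ranked peaks from 23.1 (B-H1) to 40.1 (al), and the 73.3 kb between B-H1 and B-H2 held none.

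Among the 11 genes of neuroectoderm and neuronal identity, 5 had a summit, and the ones at ems, oc and Dr were all intergenic. By the same rule, domain or nearest start, 19.4% of all protein-coding genes had a summit. ems, the head gap gene empty spiracles, had 3 summits beyond its 3′ end, on 3R. The 2 stronger ones (13914805 to 13915100, signal 115, and 13915710 to 13916005, signal 109) lay 13100 and 14005 bp from the start and were called in both replicates. At the first, replicate 1 gave 60.5 and replicate 2 gave 54.9, and at the second 46.8 and 62.8. The third ems summit, 5963 bp from the start (signal 69.5), was called in replicate 2 only.

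oc, the head gap gene orthodenticle, had a summit on either side of the gene on X. The one 6036 bp upstream (8656569 to 8656864, signal 88.8) was called in both replicates, with 53.3 and 34.2. The one 2755 bp beyond the 3′ end (8627256 to 8627551, signal 64.5) was called in replicate 2 only. Dr, a muscle segment homeobox gene of the dorsal neuroectoderm, had a summit 1931 bp beyond its 3′ end (signal 83.4), called in replicate 1 only, with signals of 55.7 and 26.9. Drgx, a paired-type homeobox gene, had a promoter summit 255 bp upstream of its start (2L 3662342 to 3662637), with a signal of 56.6 that neither replicate called. vnd and ind, which with Dr divide the neuroectoderm into columns, had 0 summits, and neither had scro, unpg, exex or unc-4. Of these 6, exex, a regulator of motor neuron fate, had the strongest ranked peak (48.3) and ind the weakest (26.8).

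LIM homeobox genes, whose products combine a homeodomain with protein-binding LIM domains, had 6 summits at 3 of 5 genes. By domain or nearest start, 19.4% of all protein-coding genes had a summit. All 5 LIM genes were in the longest class of domain length, where 33.8% of all genes had a summit in the domain. Lim3, a motor neuron identity gene, had an intronic summit (2L 19096308 to 19096603, signal 105), called in both replicates with 58.2 and 43.6. The nearest start there was that of CG17344, 5588 bp away, and that of Lim3 was 9819 bp away. A further summit in the 3′ UTR of Lim3 (signal 54.9) was called in neither replicate and lay 898 bp from a start of CG10700. Lim1 had an intronic summit 11137 bp from its start (X 8774068 to 8774363, signal 96.8), called in both replicates with 57.3 and 39.8, and one 1001 bp beyond its 3′ end (64.4), called in replicate 1 only. Awh had 2 intronic summits with signals of 71.7 and 60.8, which neither replicate called. At the weaker one the nearest start was that of lncRNA:CR45379, 9011 bp away, and that of Awh was 9207 bp away. tup and ap had none, with strongest ranked peaks of 43.2 and 46.6.

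POU and CUT genes had 5 summits at ct and vvl. vvl, a POU gene of the trachea and nervous system, had 3 summits beyond its 3′ end on 3L, at 7320, 26217 and 33901 bp from its start, with signals of 45.4, 60.5 and 105. Only the farthest (6823911 to 6824206) was called by a replicate, and both did, with 51.9 and 48.0. ct, the gene cut that sets external sensory organ identity, had 2 neighbouring intronic summits 8007 and 9219 bp from its start (signals 72.9 and 72.4). Replicate 1 called the first of these and replicate 2 the second. The signal of the first was 49.0 in replicate 1 and 25.2 in replicate 2, and that of the second 42.7 and 30.1. nub and its neighbour pdm2 had none in their domains or in the 29.0 kb between them.

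Eye and head genes had a single summit, 5030 bp beyond the 3′ end of eyg (3L 12457359 to 12457654, signal 64.9), which replicate 1 alone called. That is 1 of 9 genes by domain or nearest start, against 19.4% of all protein-coding genes. ey, toy, toe, so, Six4, Optix, Rx and ro had none. The 269 kb between the Pax genes ey and toy held 0 summits, as did all of chromosome 4, and the 29.9 kb between toe and eyg held 1, the summit of eyg. Of the Iroquois genes, which pattern the body wall, caup and mirr each had 1 summit upstream, 3192 bp (signal 49.6) and 8740 bp (67.2) from the start, and ara had none. The 13.6 kb between ara and caup held 1 summit, that of caup, and the 71.8 kb between caup and mirr held 3, of which 1 was given to mirr and none to caup. Neither summit was called in a replicate. The muscle and heart genes slou, lbe and lbl had 0 summits, with strongest ranked peaks of 25.8, 29.7 and 43.9, and the 7.44 kb between the ladybird genes lbe and lbl held none.

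**Figure D2:**
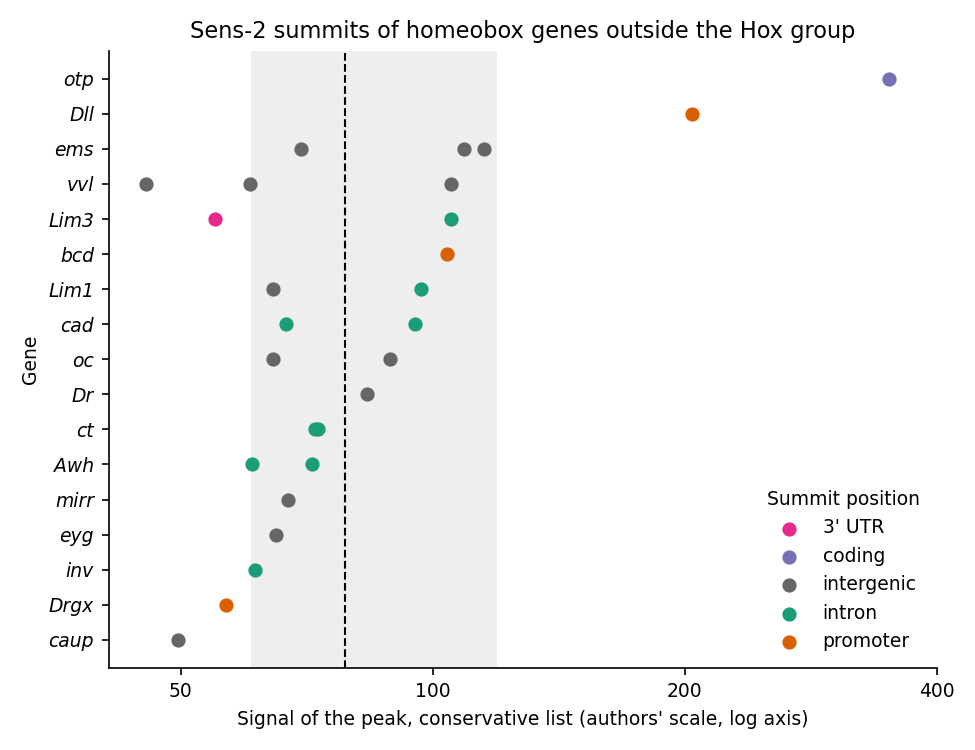
Signal of the 27 summits of the set in the conservative list (horizontal log axis, authors' scale), by gene and coloured by position. The dashed line is the median of all 2883 peaks (78.6) and the grey band runs from their lower to their upper quartile (60.8 to 119), which only otp (351) and Dll (204) exceed.

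Apart from otp and Dll, the peaks of the set were of middle or low rank. Their signals ran from 45.4 to 351 with a median of 71.7, against 78.6 over the list. Of the 27 summits 11 were above the list's median, 2 above its upper quartile and 5 below its lower quartile.

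Summits of the set lay away from promoters more often than those of the list as a whole. Promoter summits were 3 of 27 (11.1%, interval 2.35 to 29.2), against 44.2% of the list (42.4 to 46.1). Intergenic summits were 13 of 27 (48.1%, interval 28.7 to 68.1), against 15.6% of the list (14.3 to 17), whereas introns held 33.3% and 38%. The nearest transcript start of any gene was a median of 8875 bp from the summits away from promoters in the set and 2514 bp in the list. The nearest-start rule gives intergenic summits to genes with distant neighbours, and its part in this difference was not tested.

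The share of the set's intergenic summits beyond the 3′ end ran from 52.6% to 76.9% over the lists, with wide and overlapping intervals. Of the 13 in the conservative list, 10 were beyond the 3′ end of the gene (76.9%, interval 46.2 to 95) and 3 upstream, at oc, mirr and caup. Of 296 intergenic summits whose nearest start was that of a protein-coding gene, 98 were beyond the 3′ end (33.1%, interval 27.8 to 38.8). The intergenic sequence open to such summits was divided alike, with 38.1% of it beyond the 3′ end in the set and 38.6% over all protein-coding genes. ems and vvl gave 6 of the 10 summits, and summits of one gene are not independent. In the other thresholded list made across both replicates, the share beyond the 3′ end was lower, 10 of 19 (52.6%, interval 28.9 to 75.6), against 31.3% over protein-coding genes. It was 6 of 8 in replicate 1 and 5 of 8 in replicate 2. This comparison and its alternatives were chosen after the positions were seen.

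**Figure D3:**
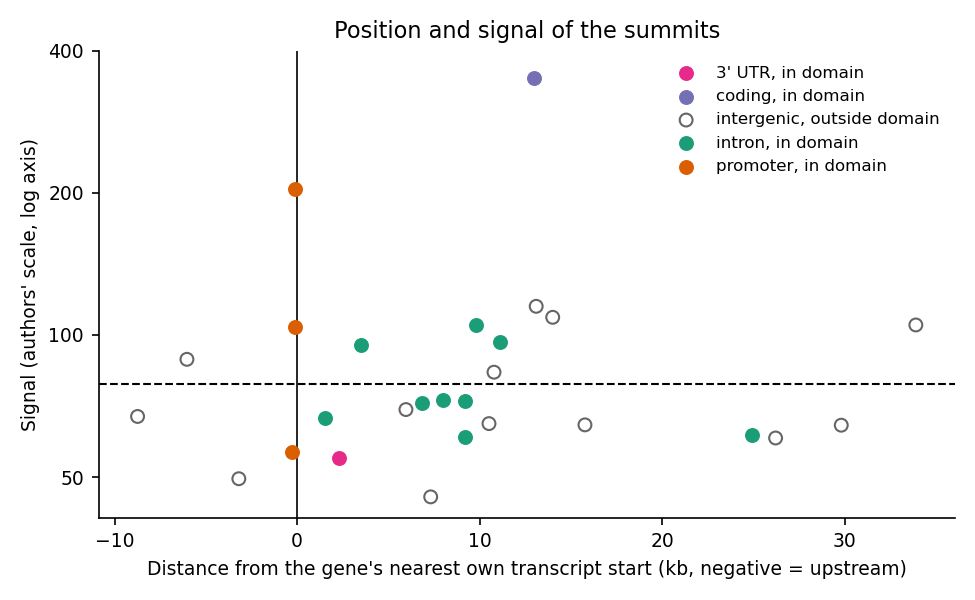
Signal of each of the 27 summits (vertical log axis, authors' scale) against its distance in kb from the nearest start of its own gene, with upstream as negative. Filled points lie in the gene's domain and open points outside it. The intergenic summits reach 33901 bp downstream (vvl), and the dashed line is the list's median of 78.6.

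Replicates called the set's peaks about as often as others. In the thresholded list of replicate 1, 15 peaks belonged to the set, and 10 of them (66.7%, interval 38.4 to 88.2) overlapped a replicate 2 peak, against 59.5% of the list. In replicate 2, 10 of 16 did (62.5%, interval 35.4 to 84.8), against 71.0%. Of the 27 conservative summits, 10 overlapped a thresholded peak in both replicates, 4 in replicate 1 only, 3 in replicate 2 only and 10 in neither (37.0%, interval 19.4 to 57.6), where 30.1% of the list had neither. By domain, replicate 1 had a summit at 7 genes (13.2%, against 13.5% of all protein-coding genes) and replicate 2 at 8 (15.1%, against 11.9%). Both had one at 7 genes (13.2%, against 9.3%), namely otp, Dll, Lim1, Lim3, bcd, cad and ct, of which ct was called at different summits. The eighth gene of replicate 2 was zfh2. By domain or nearest start, replicate 1 alone gave 12 genes with a summit (22.6%, interval 12.3 to 36.2, against 14.6% of all protein-coding genes). Replicate 2 alone gave 11 (20.8%, interval 10.8 to 34.1, against 12.7%).

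**Figure D4:**
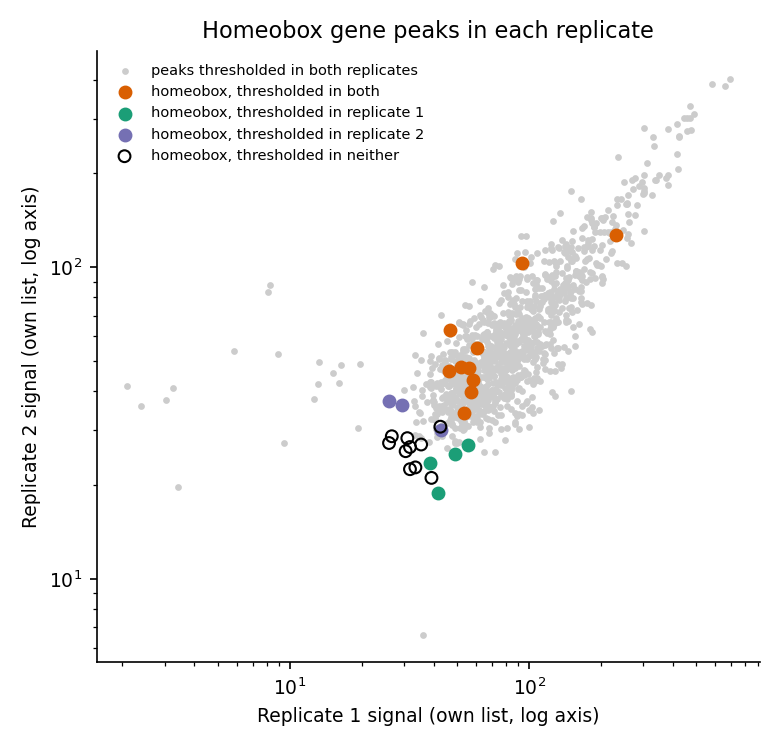
Signal of the set's 27 peaks in the ranked list of replicate 1 (horizontal log axis) and of replicate 2 (vertical log axis), coloured by the replicates that called them, over all peaks called in both replicates (grey). otp (230 and 127) and Dll (93.3 and 103) stand above the other peaks of the set. Peaks called in neither replicate reach 42.6 in replicate 1 and 30.8 in replicate 2 (Awh).

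The Senseless core hexamer AAATCA, searched on both strands within 50 bp of the summit, was in 6 of 27 windows (22.2%, interval 8.62 to 42.3), against 17.9% of all 2883 windows of that length. In the set, windows 300 bp to either side held it in 3 (11.1%) and 4 (14.8%) cases, and in the list in 9.61% and 10.4%. The 6 were the summits of cad nearest to its start, of oc and of Lim1 beyond the 3′ end, of vvl at 26217 bp, of caup and of inv, with signals from 49.6 to 66.7. None of the 11 summits above the list's median held it, which allows a share of up to 28.5% (upper end of the exact 95% interval). With 1 replicate's list the share was lower, 13.3% of 15 peaks in replicate 1 and 6.25% of 16 in replicate 2. No share over all peaks is given above the list's median or in a single replicate's list. Whether these lower shares are particular to the set was therefore not tested. The hexamer TAATTA, which many homeodomains bind and which reads the same on both strands, was in 2 windows (7.41%, interval 0.91 to 24.3), against 8.53% of the list. No window held both hexamers.

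The windows from 50 bp before to 50 bp after the summit at 5 of the AAATCA-bearing summits show the hexamer, in capitals, on the forward strand of dm6. In vvl and caup it lies on the reverse strand and reads TGATTT. Sequences were read from the RefSeq copy of Release 6.
cad, chr2L:20772376-20772476: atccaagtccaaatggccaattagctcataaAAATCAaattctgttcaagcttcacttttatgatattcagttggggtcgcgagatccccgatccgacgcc
oc, chrX:8627354-8627454: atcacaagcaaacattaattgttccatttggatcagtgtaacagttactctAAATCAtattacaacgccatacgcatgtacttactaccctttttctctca
Lim1, chrX:8755488-8755588: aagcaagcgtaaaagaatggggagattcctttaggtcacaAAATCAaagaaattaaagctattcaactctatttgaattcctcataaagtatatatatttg
vvl, chr3L:6816325-6816425: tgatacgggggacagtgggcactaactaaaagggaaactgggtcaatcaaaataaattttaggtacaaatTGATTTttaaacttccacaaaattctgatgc
caup, chr3L:12606389-12606489: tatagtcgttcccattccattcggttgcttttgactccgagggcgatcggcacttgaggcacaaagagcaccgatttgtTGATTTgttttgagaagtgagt

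Both windows that held TAATTA, in capitals, were at the intronic Lim1 summit and beyond the 3′ end of eyg.
Lim1, chrX:8774166-8774266: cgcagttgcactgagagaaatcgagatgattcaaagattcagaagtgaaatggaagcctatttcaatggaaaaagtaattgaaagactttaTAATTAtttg
eyg, chr3L:12457457-12457557: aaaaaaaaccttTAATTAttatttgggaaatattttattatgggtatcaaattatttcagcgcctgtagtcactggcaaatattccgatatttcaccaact

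The strongest intergenic summit of the set, at ems, and the promoter summit of bcd are shown as examples of summits that both replicates called. Neither window held either hexamer, and both are written on the forward strand.
ems, chr3R:13914903-13915003: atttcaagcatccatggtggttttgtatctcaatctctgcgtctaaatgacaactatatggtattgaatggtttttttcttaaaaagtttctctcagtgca
bcd, chr3R:6759550-6759650: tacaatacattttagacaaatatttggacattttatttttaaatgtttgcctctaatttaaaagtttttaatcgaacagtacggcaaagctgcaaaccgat

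Below the threshold, most genes of the set still had ranked peaks, of a strength usual for their length in the longest class of domains. Of the 43 genes with no summit in their domain, 41 had at least 1 peak in the domain in the ranked list that compares the replicates. The strongest such peak per gene had signals from 23.1 (B-H1) to 48.3 (exex), with a median of 35.8. In the longest class the median was 36.3 over 27 homeobox genes and 36.2 over 2143 protein-coding genes with a ranked peak and no summit. In the next class it was higher in the set, 36.7 over 10 genes against 30.6 over 2671. The set's median there was near the upper quartile of those protein-coding genes (quartiles 25.4 to 37.2). so, nub and ap followed exex with 46.9, 46.6 and 46.6. These signals reach past that of the weakest peak of the set (vvl, 45.4), but the score of the exex peak was 621 and that of the ap peak 695, against a lowest score of 830 in the conservative list.

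**Figure D5:**
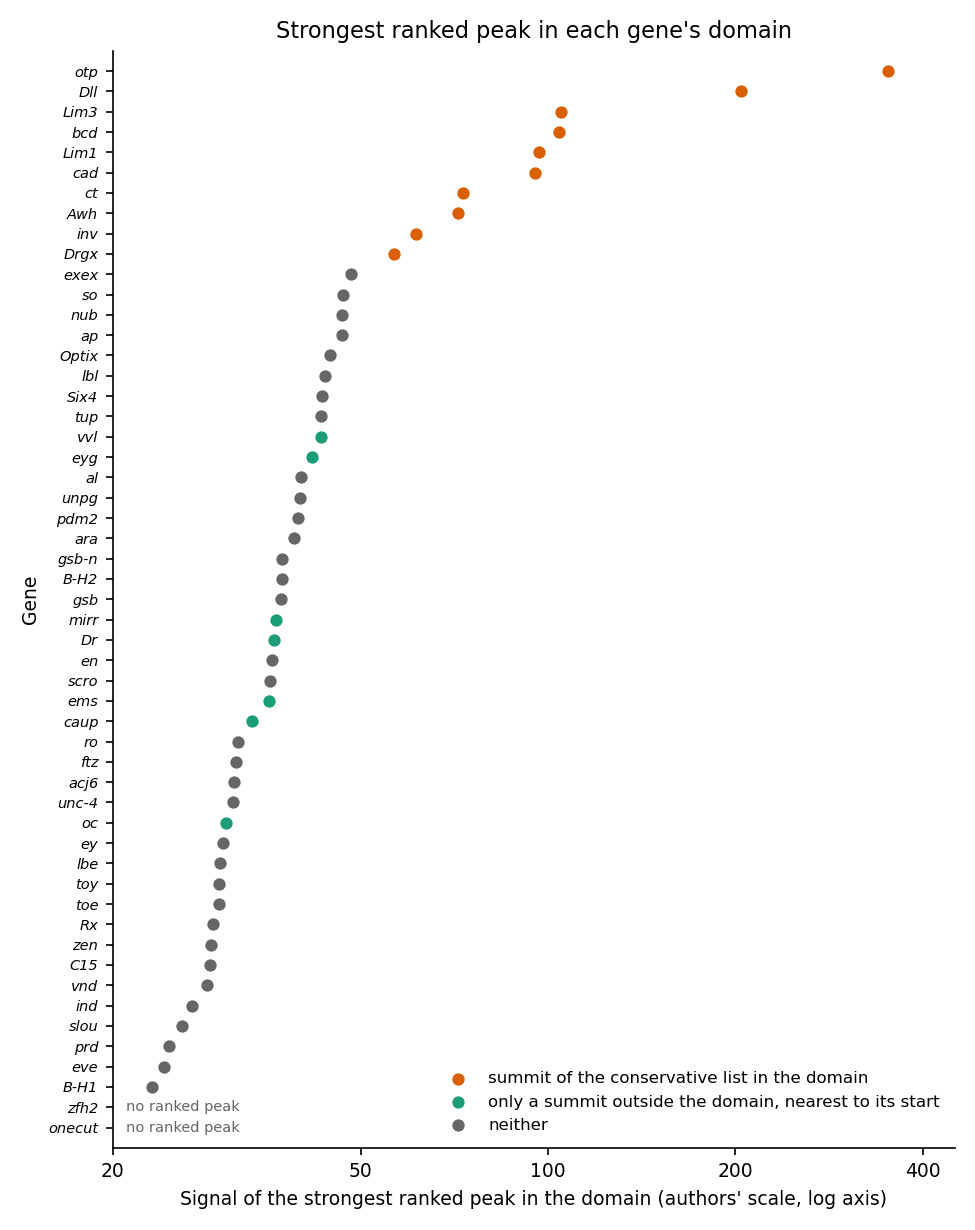
Signal of the strongest ranked peak in the domain of each of the 53 genes (horizontal log axis, authors' scale), coloured by whether the gene had a summit of the conservative list. Genes without a summit in the domain run from 23.1 (B-H1) to 48.3 (exex), and zfh2 and onecut had no ranked peak.

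The conservative list had 0 peaks on the whole of chromosome 4, which carries 80 of the protein-coding genes, so the lack of a summit at ey, toy, onecut and zfh2 is shared with every other gene there. The ranked lists held 71 peaks on that chromosome in replicate 1 and 214 in replicate 2. The ranked list that compares the replicates had no peak in the domains of onecut and zfh2, 2 in that of ey and 12 in that of toy. At zfh2, a zinc-finger homeobox gene, replicate 2 called a promoter peak 223 bp from a start (501459 to 501714, signal 25.7) and an intergenic one 3907 bp from a start (497775 to 498030, signal 87.9). The replicate 1 ranked list had no peak at either place, and none in the whole domain, where the replicate 2 ranked list had 14. In the domain of ey the ranked lists of replicates 1 and 2 held 2 and 15 peaks, in that of onecut 0 and 2, and in that of toy 8 each. Unequal numbers were not limited to chromosome 4, since the domain of scro on 3L held 24 and 2.

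Of 33 further homeobox genes outside the Hox group 7 had a summit in their domain (21.2%, interval 8.98 to 38.9). This is near the 18.9% of the set and the 17.9% of all protein-coding genes. Promoter summits were at 4 of the 33 (12.1%, interval 3.40 to 28.2), against 3 of 53 in the set and 10.6% of all protein-coding genes. The strongest were at the promoters of NK7.1 (signal 288) and tin (186), the heart regulator tinman. pros, which sets neural and glial fates in asymmetric divisions, had a summit in its 3′ UTR with a signal of 140.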

How the data were processed

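Peak lists of 2 biological replicates of 1 group were used, 8 lists in all: a ranked and a thresholded one from each replicate, and 4 made across both. All coordinates are on dm6, per the labels. The text deposited beside the samples names the alignments behind each list and 1 further file that it does not describe. No source used here names the aligner or the peak caller. For every peak the authors gave a signal and a score derived from the irreproducible discovery rate. Column 12 of each deposited ranked list, −log10 of that rate, was not used. Read depth is unknown.

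Of the conservative list, 16 peaks off the assembled chromosomes were left out. Gene models were those of Ensembl 115 (BDGP 6.54), transposable elements and pseudogenes removed. A promoter summit lay within 500 bp of any transcript start, and other summits were classed in the order 5′ UTR, coding, 3′ UTR, intron, intergenic. Peaks overlapped at 1 bp or more. A replicate's signal is that of its strongest ranked peak overlapping the conservative peak, and "called" means that a thresholded peak of that replicate overlaps it. No significance test was run, since there was 1 group without controls. Shares have exact binomial intervals (scipy 1.17.1), which treat neighbouring peaks as independent. The functions were checked on simulated summits with known answers.

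The genes and lists were chosen with earlier results of these data known. By rule, the genes with the 15 strongest summits of the set, neighbouring paralogs and genes with 3 or more summits are named in full. The other genes of the set, and NK7.1, tin and pros, were named after their values were seen. Alternatives were other lists, the stronger 50% of the list by signal, and other domains, windows and overlap rules.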

Additional observations from a re-analysis of the deposited data

Results flagged for a closer look

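The counts above use the other thresholded list made across both replicates only for the side of intergenic summits. In that list, 7 peaks of the set overlapped none of the conservative list. They lay at Dr (2 peaks, signals 61.2 and 54.8), ems (2 overlapping peaks, 55.5 and 5.44), ct (79.0), pdm2 (57.8) and so (46.9), and all were intergenic. The 2 ems peaks lay beyond the 3′ end and the other 5 peaks upstream. The so summit, 1526 bp upstream of a start of this eye gene, was the single one in a domain. The ct peak lay 3556 bp upstream of the start, where replicate 2 had a signal of 52.1 and the ranked list of replicate 1 had no peak. Why the lists differ there was not tested.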

How the results depend on the processing

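In the stronger 50% of the list by signal, 6 genes had a summit in their domain in place of 10 and 10 by domain or nearest start in place of 17, by construction from fewer peaks, and the share with AAATCA was 0% in place of 22.2%. From the list of a single replicate, the counts were 7 to 8 by domain and 11 to 12 by domain or nearest start, the promoter share 13.3% to 18.8% and the AAATCA share 6.25% to 13.3%. All 7 genes of replicate 1 were among the 10, and replicate 2 added zfh2 to the same 7. With the other thresholded list so replaced Drgx among 10 genes, and 18 genes had a summit by either rule. Gene bodies alone gave 7 genes and 5 kb upstream gave 11. No share of all protein-coding genes is given for the stronger 50%, the other thresholded list or these other domains. The counts under those settings therefore cannot be set beside other genes. The promoter share ran from 6.9% to 18.8% over all alternatives. Overlap of at least 50% of each peak left both replicate shares at 66.7% and 62.5%. The share of intergenic summits beyond the 3′ end was 76.9%, 52.6% in the other thresholded list and 62.5% to 75% in single replicates, alternatives chosen after seeing the data. Peak lists carry no depth, so how depth limits the peaks listed is unknown. No paired analysis was possible because there is 1 group.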
